A study of Mus musculus with 6 samples.

Results

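The fibrillar collagens are the collagens whose triple helices pack side by side into the banded fibrils of skin, bone and cartilage. Transcripts of 10 of these chain genes (Col1a1, Col1a2, Col2a1, Col3a1, Col5a1, Col5a2, Col5a3, Col11a1, Col24a1 and Col27a1) were taken by gene name from a table of 23934 genes, and all 10 had a row. The table came from RNA sequencing of sorted mouse skin cells at day 50, in 3 control and 3 Zfp750 knockout libraries. Zfp750, labelled ZNF750 in the genotypes, encodes a zinc finger protein that regulates the differentiation of epidermal cells, and the study's title places its loss in the junctional zone of the hair follicle and in the sebaceous gland. The knockout samples were labelled ZNF750 fl/fl and Rosa26 -/-, with Lrig1-CreER +/- in 1 sample and Lrig1-CreERT2 +/- in 2. Of the control samples, 1 was ZNF750 wt/fl, Rosa26 -/- and Lrig1-CreERT2 +/-, 1 was ZNF750 wt/fl, Rosa26 -/- and Lrig1-CreER +/-, and 1 was ZNF750 wt/wt, Rosa26 +/- and Lrig1-CreERT2 +/-. Every sample, controls included, therefore carried the recombinase and received 4-hydroxytamoxifen as a pup, on days 4 to 7 or 5 to 8. The recombinase is driven by Lrig1, a gene of the upper hair follicle, and the mice are described as expressing tdTomato. Since 5 of the 6 genotypes read Rosa26 -/-, a common site for such reporters, the labels leave unsaid how the sorted cells carried the marker.

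A fibrillar collagen is made as a procollagen of 3 chains, hydroxylated and folded in the endoplasmic reticulum, trimmed of its end propeptides outside the cell and then cross-linked. Type I, a trimer of Col1a1 and Col1a2 chains, and type III, built of Col3a1 chains alone, make up most dermal fibrils. Type V, from Col5a1, Col5a2 and Col5a3, sits within these fibrils and limits their width. Types II (Col2a1) and XI (Col11a1) are known from cartilage, and types XXIV and XXVII (Col24a1, Col27a1) form a separate branch of the family, known mainly from bone and cartilage. In skin, dermal fibroblasts are the main source of fibrillar collagen and keratinocytes make little of it.

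The libraries held 15310161 to 20705441 estimated reads. They are called S2, S3 and S4 (control) and S5, S6 and S7 (knockout) after the numbers in the column names, which match no numbered sample, so the single genotypes above cannot be set beside single libraries. Values are the deposited normalized counts, that is, estimated reads divided by a size factor of each library, not corrected for transcript length. The targeted gene could not check every label. Zfp750 was at 41.9, 3.75 and 314 in the controls against 4.90, 1.82 and 7.16 in the knockouts. Control S3 lay within the knockout range, but its value equals only 3 reads. The keratinocyte gene Krt5 was also lowest in S3, at 62.5 against 885 to 11805 in the other libraries. Zfp750 therefore says little about the label of S3. All libraries carried fibroblast transcripts at high level, with 10 fibroblast markers summing to 10372 to 16636 per 1000000 of the library total, and 11 keratinocyte markers summing to 51.4 to 1887 per 1000000. In each library the fibroblast sum exceeded the keratinocyte sum. Lrig1 is itself among the 11 keratinocyte markers, and it made up 585 of the 1329 normalized units that they summed to in control S3. The share of fibroblasts among the cells and the amount of collagen RNA per fibroblast cannot be told apart in these bulk samples. Whether the libraries come from different mice is not stated in the labels, and the p-values therefore speak only of the spread among these samples, some of which may be technical.

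The 10 genes are spread over 8 chromosomes of the mouse genome (GRCm38). Col1a1 (ENSMUSG00000001506, 51 exons) lies on chromosome 11 from 94936224 to 94953042, and Col1a2 (ENSMUSG00000029661, 52 exons) on chromosome 6 from 4504814 to 4541544, both on the plus strand. Col3a1 (ENSMUSG00000026043, chromosome 1, 45311538 to 45349706, plus strand) and Col5a2 (ENSMUSG00000026042, chromosome 1, 45374321 to 45503282, minus strand) are neighbours that face each other tail to tail. Col24a1 (ENSMUSG00000028197) lies on chromosome 3 from 145292472 to 145552011 and Col27a1 (ENSMUSG00000045672) on chromosome 4 from 63214004 to 63334991. The sequences upstream of the RefSeq start (RefSeq, GRCm38.p6) are shown for 2 genes whose knockout values lay below the controls, Col3a1 and Col1a2, and for the 2 that rose, Col24a1 and Col27a1. They run 5′ to 3′ on the plus strand. Capitals mark TATAAA, the core of a box bound by the general transcription machinery. They also mark GGGCGG, the core of a box bound by Sp1. A further motif, CCAAT, is the core of the box bound by NF-Y. All were searched on both strands, and no marked motif overlaps another. The windows are Col3a1 chr1:45311288-45311537, Col1a2 chr6:4505370-4505492, Col24a1 chr3:145292222-145292471 and Col27a1 chr4:63215162-63215411. In GENCODE the Col1a2 and Col27a1 genes start earlier than in RefSeq, at 4504814 and 63214004. The windows of Col1a2 and Col27a1 therefore lie within the gene spans given above, not upstream of them.
Col3a1: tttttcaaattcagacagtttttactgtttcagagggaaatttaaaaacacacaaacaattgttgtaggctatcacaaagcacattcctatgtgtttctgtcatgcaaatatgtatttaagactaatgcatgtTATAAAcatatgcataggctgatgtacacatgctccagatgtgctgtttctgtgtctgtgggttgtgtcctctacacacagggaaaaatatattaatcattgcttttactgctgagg
Col1a2: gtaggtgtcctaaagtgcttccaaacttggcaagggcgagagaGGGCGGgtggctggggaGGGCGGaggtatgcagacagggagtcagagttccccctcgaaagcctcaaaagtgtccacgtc
Col24a1: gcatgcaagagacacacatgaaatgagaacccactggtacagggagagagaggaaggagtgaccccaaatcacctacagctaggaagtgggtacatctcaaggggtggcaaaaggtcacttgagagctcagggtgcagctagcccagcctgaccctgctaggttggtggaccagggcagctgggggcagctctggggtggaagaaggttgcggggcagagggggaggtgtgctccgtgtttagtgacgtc
Col27a1: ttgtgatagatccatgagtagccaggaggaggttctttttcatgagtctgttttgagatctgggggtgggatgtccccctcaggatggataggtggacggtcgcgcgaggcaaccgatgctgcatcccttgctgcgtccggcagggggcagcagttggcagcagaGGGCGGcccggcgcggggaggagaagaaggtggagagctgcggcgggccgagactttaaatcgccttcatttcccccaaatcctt
The Col1a2 stretch is short because exon sequence in GENCODE is left out: 2 bases at the far end of its window, and the 125 bases next to the RefSeq start, which belong to a first exon. It therefore ends 125 bases before the RefSeq start. The Col3a1 window was AT-rich, with 35.2% G and C against a median of 52.4% over all promoters, and was the only 1 of the 7 member promoters in the RefSeq table with TATAAA, which 12.4% of 32851 promoters hold within 250 bases. In Col3a1 the first base of TATAAA lies at -117 from the RefSeq start. GGGCGG occurred in 5 of the 7, Col1a2 and Col27a1 among them, against 32.7% of all promoters. CCAAT occurred in 3 of the 7, Col1a2, Col5a3 and Col11a1, against 33.8%; in Col1a2 it lies in the unprinted stretch. Col24a1 held none of the 3 motifs in this window. These are matches of letters and no measurement of binding.

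**Figure D1:**
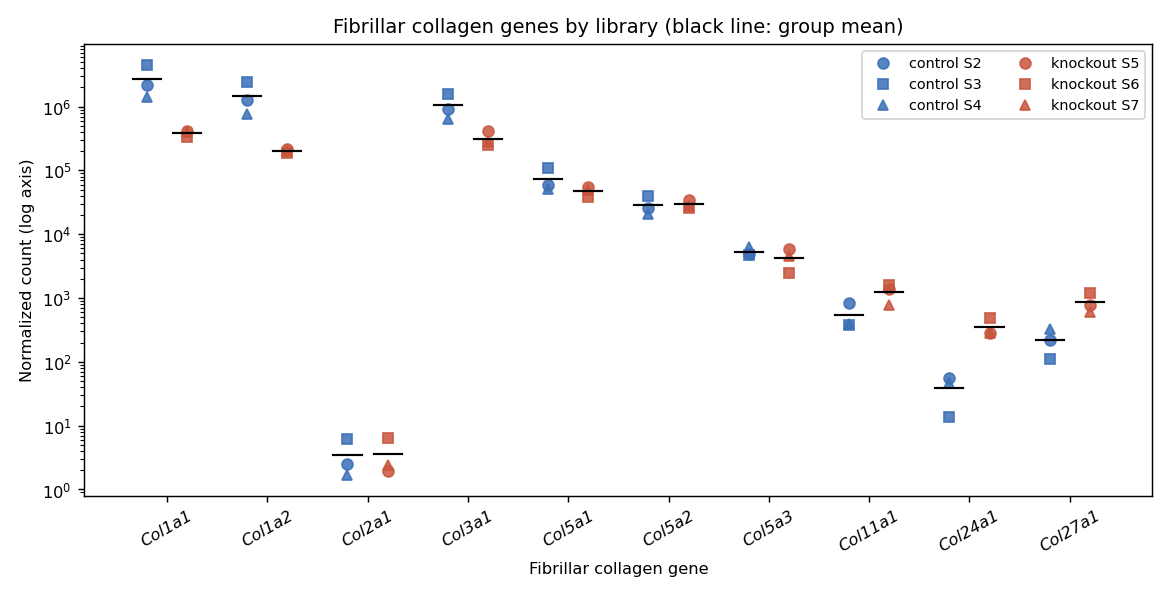
Deposited normalized values of the 10 fibrillar collagen genes (log axis) in each of the 3 control and 3 knockout libraries, 1 point per library and a black line at each group mean. The knockout points lie below all control points for Col1a1, Col1a2 and Col3a1 and above them for Col24a1 and Col27a1, and the groups overlap for the other 5 genes.

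The transcripts of the most abundant chains, those of types I and III, were several-fold lower in the knockout libraries, without passing the test, whereas those of 2 rare chains, Col24a1 and Col27a1, rose. Of the 10 genes, 9 passed the filter on low values (in 3 or more libraries, 1 per 1000000 of the total) and were tested with limma on log2(value + pseudocount). At an adjusted p under 0.05, 2 were higher and 0 lower in the knockout. Over all 15935 tested genes, 4.12% were called higher and 2.59% lower, 6.71% in all. Without adjustment, 4 of the 9 had a p under 0.05, against 23.2% of all tested genes. The groups did not overlap for 5 of the members, as for 28.8% of tested genes, 3 of them on the lower side, where 13.1% of tested genes lie, and 2 on the higher side, where 15.7% lie. The median log2 fold change was -0.37 over the 9 tested members and 0.01 over all tested genes.

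Col1a1 encodes the chain that supplies most of the type I trimer. Its normalized values were 2150000, 4570000 and 1430000 in control libraries S2 to S4 and 407741, 333927 and 400230 in knockout libraries S5 to S7. Every control library lay above every knockout library, S3 stood highest, and the knockout libraries were close to each other, with a coefficient of variation of 10.7% against 60.5% among the controls. The means were 2716667 ± 1644911 and 380633 ± 40622 (SD, n = 3 each), 7.14-fold lower in the knockout. The log2 fold change was -2.67 ± 1.21 (SE; 95% confidence interval -5.48 to 0.14) and missed the threshold (limma adjusted p = 0.237). Col1a2, the partner chain, was at 1260000, 2390000 and 757292 in the controls against 216530, 185734 and 202194 in the knockouts. It repeated the order of the controls, with S3 highest and S4 lowest, and its groups did not overlap. Its mean was 7.29-fold lower in the knockout (log2 fold change -2.71 ± 0.92 SE, interval -4.85 to -0.58, limma adjusted p = 0.131).

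Col3a1, whose chains alone form type III collagen, was at 903833, 1600000 and 647999 in the controls against 409011, 246395 and 282534 in the knockouts. The groups did not overlap, but the gap was narrower than for type I: control S4 was the lowest control and knockout S5 the highest knockout library. The mean was 3.36-fold lower in the knockout (log2 fold change -1.68 ± 0.93 SE, interval -3.84 to 0.48, limma adjusted p = 0.325). Under quantile normalization the log2 fold change of Col3a1 was 0.69, while those of Col1a1 and Col1a2 were -0.20 and -0.74. That method forces the top ranks of all libraries to the same values, and these 3 genes were among the 4 highest of all genes in each library.

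The SEs of these 3 genes were wider than their own spread, because limma draws each variance towards a trend fitted against level. Only 2 genes, Col1a1 and Col1a2, had a higher mean than Col3a1, so the trend rests on few genes at this level. For Col1a1 the residual SD of its own log2 values was 0.612, but the fitted trend gave a prior SD of 2.06, which widened the SE to 1.21. For Col1a2 the own SD was 0.593 and the prior 1.51, and for Col3a1 0.538 and 1.56. Without the trend, Col1a1 (limma adjusted p = 0.0177) and Col1a2 (adjusted p = 0.0159) were called lower and Col3a1 was not (adjusted p = 0.053). With robust variance estimation the adjusted p-values were 0.0242, 0.0189 and 0.0737. Scaling the libraries to a common total also called Col1a1 and Col1a2 lower (log2 fold changes -2.35 and -2.39, adjusted p = 0.0303 and 0.0149). Since these genes themselves take up much of the total, the total without the 10 members was used as well, and it called neither (adjusted p = 0.109 and 0.0526).

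**Figure D2:**
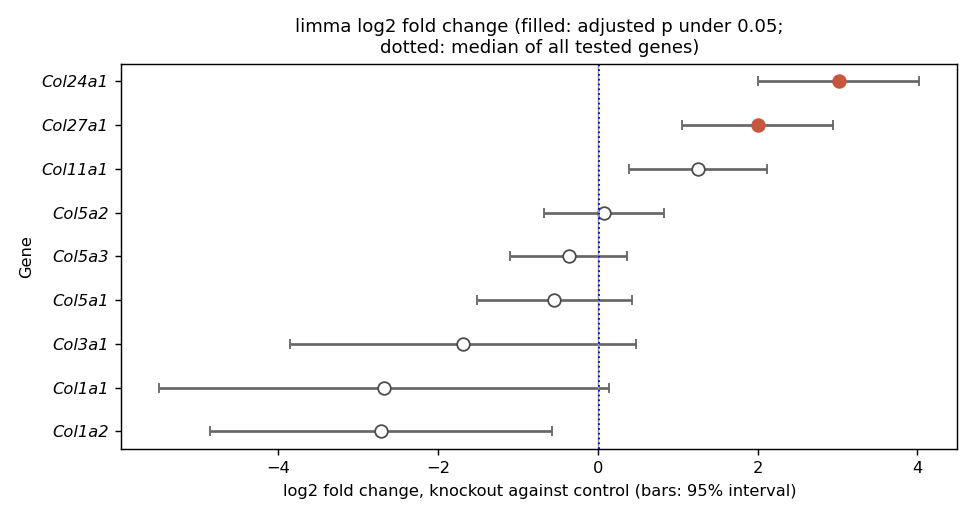
Log2 fold change (knockout over control) of the 9 tested fibrillar collagen genes with 95% confidence intervals from limma, 3 libraries per group. The intervals of Col1a2, Col11a1, Col24a1 and Col27a1 leave out 0, and only Col24a1 and Col27a1 passed after adjustment over all genes.

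None of the type V chains passed the test, and their groups overlapped in normalized counts. Col5a1, the chain found in nearly all type V trimers, was at 58773, 111052 and 50602 in the controls against 55584, 38352 and 49985 in the knockouts. Only control S3 stood clearly apart, and the groups overlapped (log2 fold change -0.54 ± 0.41 SE, interval -1.51 to 0.42, limma adjusted p = 0.479). Col5a2, its usual partner, was at 25802, 39182 and 20403 in the controls against 34438, 25848 and 27545 in the knockouts. The knockout values lay inside the control range (log2 fold change 0.08 ± 0.32, interval -0.67 to 0.83, adjusted p = 0.906), and the sign turned without control S4 (-0.13), without knockout S5 (-0.04) and under quantile normalization (-0.10). Col5a3, a less common type V chain, was at 4879, 4645 and 6219 in the controls against 5829, 2489 and 4537 in the knockouts. Its interval of -1.10 to 0.37 on the log2 scale holds differences in both directions (adjusted p = 0.535).

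The chains best known from cartilage were rare. Col2a1 came to 2, 5 and 2 estimated reads in the controls against 2, 7 and 3 in the knockouts, near the floor of 3 reads, so no fold is given and a difference was not detectable at this depth. In normalized values that was 2.54, 6.25 and 1.68 against 1.96, 6.38 and 2.39, and a fit without the filter gave a limma adjusted p of 0.987. Col11a1, which co-assembles with type V chains in several tissues, was measured well above that floor, at 825, 383 and 392 in the controls against 1372, 1615 and 788 in the knockouts. Control S2 lay just above knockout S7, and otherwise the knockout libraries were higher. The mean was 2.36-fold higher (log2 fold change 1.26 ± 0.37 SE, interval 0.40 to 2.12), which missed the threshold after adjustment (limma adjusted p = 0.0925) and passed it under common-total scaling (log2 fold change 1.57, adjusted p = 0.0467). Col11a2, a further fibrillar chain that is not among the 10, was at 14.3 to 34.3 in the controls against 9.55 to 36.5 in the knockouts. Of 10 cartilage and bone markers, 6 had a row and 4 were tested, of which 0 rose and 0 fell, with a median log2 fold change of -1.38. These 4 ran from -1.82 to 0.72, the highest being Runx2. The cartilage proteoglycan gene Acan was at 339, 181 and 95 in the controls against 195, 96.6 and 24.7 in the knockouts (log2 fold change -1.08 ± 0.69, adjusted p = 0.394).

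Col24a1 rose most among the members. Its values were 55.9, 13.7 and 46.3 in control libraries S2 to S4 and 283, 493 and 288 in knockouts S5, S6 and S7, or 44, 11 and 55 estimated reads against 289, 541 and 362. Each knockout library exceeded each control library several-fold, and control S3, the library with the most Col1a1, had the least Col24a1. The means were 38.6 ± 22.1 and 355 ± 120 (SD, n = 3 each), a 9.18-fold difference. The log2 fold change was 3.02 ± 0.43 (SE, interval 2.01 to 4.02, limma adjusted p = 0.00923). The call was kept in each of the 6 fits without 1 library (adjusted p = 0.0115 to 0.0484). Col27a1, of the same branch of the family, was at 220, 110 and 325 in the controls against 779, 1207 and 602 in the knockouts. Here too S3 was the lowest control and S6 the highest knockout, and the groups did not overlap. The means were 218 ± 107 and 863 ± 311, a 3.95-fold difference (log2 fold change 2.00 ± 0.41 SE, interval 1.06 to 2.95, limma adjusted p = 0.0306). This call was lost without S2 (adjusted p = 0.103), S3 (0.0519), S5 (0.0612), S6 (0.116) or S7 (0.0530), with a log2 fold change of 1.60 to 2.34 over all 6 such fits.

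Because the scaling of the libraries bears on all these values, the genes were also expressed as a share of the library total. Col1a1 took 11.1%, 17.7% and 8.84% of the total in the controls against 2.44%, 2.16% and 2.49% in the knockouts, that is 12.5% ± 4.59 against 2.36% ± 0.175 (SD, n = 3 each). Col1a2 took 6.80% ± 2.30 and 1.25% ± 0.0459, and Col3a1 4.95% ± 1.12 and 1.93% ± 0.451. The groups did not overlap for any of the 3 shares. All 10 genes together took 22.6%, 33.7% and 18.0% of the control totals and 6.76%, 5.41% and 6.02% of the knockout totals. The 7 genes other than Col1a1, Col1a2 and Col3a1 took 0.516% ± 0.0738 and 0.520% ± 0.067, so the difference of the family total lay in the types I and III chains. Among these 7, Col5a2 had a higher share in each knockout library (0.206%, 0.167% and 0.171%) than in any control (0.133%, 0.152% and 0.126%), as did Col11a1, Col24a1 and Col27a1. In all, 3 shares lay lower and 4 higher without overlap. Over all tested genes, 5.99% of shares lay lower and 27.3% higher without overlap. The 1.33-fold higher Col5a2 share stands beside a median shift of all genes of 0.31 on the log2 scale under a common total. For each of these 7 shares the exact 2-sided permutation p was 0.1, the smallest that 3 against 3 libraries allow (0.143 adjusted over 10 genes). The Col5a1 share, 0.348% ± 0.0706 in controls and 0.297% ± 0.0435 in knockouts, overlapped between groups (exact permutation p = 0.5).

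**Figure D3:**
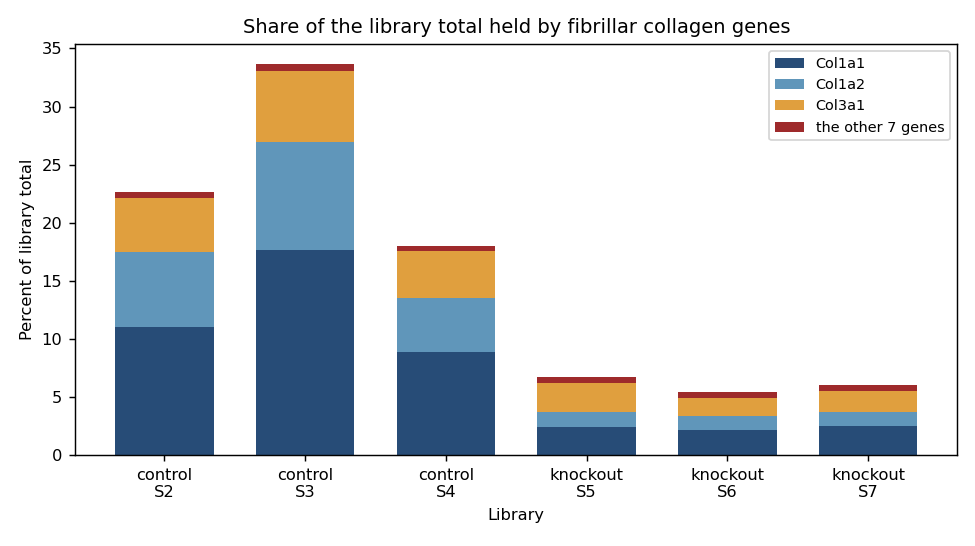
Share of each library's total (percent, bars from 0) held by Col1a1, Col1a2, Col3a1 and the other 7 fibrillar collagen genes, stacked by library. The stacks reach 18.0% to 33.7% in the controls against 5.41% to 6.76% in the knockouts, and the top segment of 7 genes is about as thick in every library.

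Per kilobase of transcript, which allows chains to be compared with each other, the order of the levels also differed. In the controls it ran Col1a1, Col1a2, Col3a1, Col5a1, Col5a2, Col5a3, Col11a1, Col27a1, Col24a1 and Col2a1, from 458123 down to 0.684 normalized units per kilobase. Only Col1a1 and Col1a2, and Col1a2 and Col3a1, were neighbours with overlapping values there. In the knockouts Col3a1 (56191 ± 15347 per kilobase) took the second place ahead of Col1a2 (37675 ± 2881), without overlap between them, and overlapped with Col1a1 (64188 ± 6850). Col3a1 was the highest fibrillar collagen of knockout S5 and the second highest of S6 and S7 per kilobase among these genes, and the third of each control. Col5a1 overlapped with Col5a2, and Col11a1 with Col27a1, in the knockouts only. Within each knockout library Col5a1 still exceeded Col5a2, and Col11a1 exceeded Col27a1. Likewise, Col1a1 exceeded Col1a2 and Col1a2 exceeded Col3a1 within each control library. These overlaps are therefore between libraries. Taken as parts of the summed level of the 10 genes per kilobase, Col1a1 made up 48.3% ± 1.97 of the control pool and 38.1% ± 2.72 of the knockout pool, Col1a2 29.2% ± 1.36 and 22.4% ± 1.68, and Col3a1 20.9% ± 2.01 and 32.8% ± 4.06. The type V chains together went from 1.60% ± 0.349 to 6.38% ± 0.214 of the pool. Such parts depend on each other, since they add up to the whole.

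Ratios between chains within a library are free of any scaling. The 2 type I chains differed little in proportion between the groups: the level of Col1a2 per Col1a1, per kilobase, was 0.650, 0.580 and 0.587 in the controls against 0.589, 0.617 and 0.560 in the knockouts (exact permutation p = 0.7, log2 difference -0.04). The 6 libraries spanned a narrow range for this ratio, while Col1a1 itself ranged from 333927 to 4570000. Col3a1 per Col1a1 was 0.448, 0.373 and 0.483 in the controls against 1.07, 0.786 and 0.752 in the knockouts, 1.99-fold higher, and Col3a1 per Col1a2 was 2.04-fold higher. Col5a1 per Col1a1 was 4.37-fold, Col5a3 per Col1a1 4.94-fold and Col5a2 per Col1a1 6.74-fold higher in the knockout. The ratios to Col1a1 were 15.4-fold higher for Col11a1, 26.5-fold for Col27a1 and 66.3-fold for Col24a1. Single controls moved the last 3 values: on the log2 scale the Col24a1 ratio, 6.05 higher, was 4.96 higher without S3 and 6.68 without S4. The Col27a1 ratio, 4.73 higher, was 3.84 higher without S3 and 5.46 without S4, and the Col11a1 ratio, 3.94 higher, was 3.29 higher without S3. These 8 ratios share Col1a1 or Col1a2 as their denominator and are not independent of each other. The means of these 2 denominators were 7.14-fold and 7.29-fold lower in the knockout, so a chain at an unchanged level also gives a higher ratio. Col5a1 and Col5a3 had higher ratios with log2 fold changes of -0.54 and -0.37. How many other genes have a higher ratio to Col1a1 was not counted.

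Within type V the partners differed as well. Col5a2 per Col5a1, per kilobase, was 0.557, 0.448 and 0.512 in the controls against 0.786, 0.855 and 0.699 in the knockouts, 1.54-fold higher without overlap. Col5a3 per Col5a1 overlapped between the groups (exact permutation p = 0.8, log2 difference 0.18). Col11a1 per Col5a1 was 3.52-fold higher in the knockout. Between the chains that rose, Col27a1 per Col24a1 was 3.69, 7.51 and 6.59 per kilobase in the controls against 2.58, 2.30 and 1.96 in the knockouts, so Col24a1 differed more than Col27a1. Of 14 ratios, 13 were tested, since Col2a1 was too low, and 11 did not overlap, 10 higher and 1 lower. Most of the 10 have Col1a1 or Col1a2 as denominator, whose lower knockout values alone raise a ratio. The count is therefore not a count of chains that rose. Each of these 11 had an exact permutation p of 0.1, the smallest possible, and 0.118 adjusted over the 13.

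**Figure D4:**
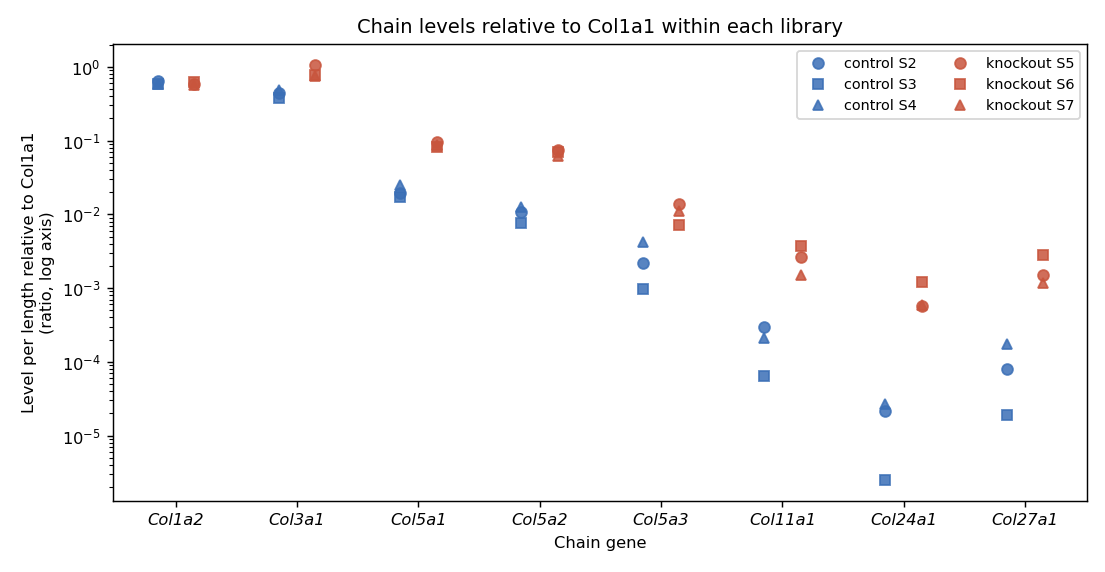
Level of 8 fibrillar collagen chains relative to Col1a1, per kilobase of transcript (ratio, log axis), in each control and knockout library. Col1a2 per Col1a1 stays at 0.560 to 0.650 in all 6 libraries, whereas the ratios of Col3a1 and of the type V, XI, XXIV and XXVII chains to Col1a1 lie higher in every knockout library.

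The fibrillar collagens were set beside markers of the cells that the sort could hold. Over all tested genes, 4.12% were called higher and 2.59% lower. The fibroblast markers summed to 16636, 16180 and 11305 per 1000000 in the controls against 14520, 12483 and 10372 in the knockouts, and the groups overlapped. Of these 10 markers 2 rose, the platelet-derived growth factor receptor genes Pdgfra and Pdgfrb, and 0 fell, with a median log2 fold change of -0.07. Pdgfra went from 11100 ± 332 to 26291 ± 2887 normalized units (log2 fold change 1.24 ± 0.21 SE, limma adjusted p = 0.0165), a call lost without S2, S6 or S7 (adjusted p = 0.0981, 0.059 and 0.0601). Pdgfrb lost its call in each fit without 1 library (adjusted p = 0.0532 to 0.134). Dcn and Lum, which made up 53.0% to 79.0% of the fibroblast sum, were not called, but their means were lower in the knockouts. Dcn went from 177109 ± 72285 to 84085 ± 15611 and Lum from 59479 ± 33114 to 27541 ± 3936, with overlap between the groups for both. Values relative to the sum therefore carry these differences as well. Relative to the fibroblast sum, Col1a1 was at 664%, 1092% and 782% in the controls against 168%, 173% and 240% in the knockouts. Col1a2 came to 458% ± 98.6 and 102% ± 16.8 of that sum, and Col3a1 to 339% ± 53.3 and 155% ± 23.7, again without overlap (exact permutation p = 0.1 each). Col5a1 came to 24.1% ± 5.20 and 24.2% ± 5.17 (exact permutation p = 1), and Col5a2 to 9.50% ± 1.60 and 14.7% ± 1.61.

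Markers of other cells varied between libraries. Keratinocyte markers summed to 419, 51.4 and 1887 per 1000000 in the controls against 345, 349 and 1727 in the knockouts, and of 11 tested 0 rose and 1 fell, Krt10 (limma adjusted p = 0.0496), a call lost in each fit without 1 library except that without S5 (up to 0.144). The basal keratin gene Krt5 was at 2503, 62.5 and 11805 against 1164, 885 and 8559 (log2 fold change 0.69 ± 1.76 SE, limma adjusted p = 0.851), and its sign turned without S3 (-1.39) or S7 (-0.33). Beside these sums, in the same order of libraries, Col1a1 took 11.1%, 17.7% and 8.84% of the control totals and 2.44%, 2.16% and 2.49% of the knockout totals. Control S3, with the lowest keratinocyte sum, had the highest Col1a1 share, and S4, with the highest sum, had the lowest share of the controls. The knockouts did not repeat this order: S7, with their highest sum (1727), also had their highest share (2.49%). The part of keratinocyte content in the collagen shares was not tested. Leukocyte markers summed to 63.4, 57.0 and 163 per 1000000 in the controls against 94.3, 152 and 517 in the knockouts, with 0 of 10 called and a median log2 fold change of 1.84. The pan-leukocyte gene Ptprc (log2 fold change 2.18 ± 1.13, adjusted p = 0.293) passed only without S4 (3.40, adjusted p = 0.0485). Endothelial sums were 52.8 to 138 and 91.0 to 404 per 1000000, with 0 of 6 called (Pecam1 1.71 ± 0.80, limma adjusted p = 0.251). Schwann cell and melanocyte sums were 30.6 to 46.3 and 26.2 to 53.9, with 0 of 6 called (Sox10 0.95 ± 0.43, limma adjusted p = 0.234). Log2 fold changes of the tested markers ran from -0.72 to 3.35 for endothelial cells and from -0.55 to 1.05 for Schwann cells and melanocytes.

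Mural and smooth muscle markers summed to 161 to 467 per 1000000 in the controls against 373 to 482 in the knockouts. Of 7 tested 1 was called, Des, which fell (limma adjusted p = 0.0595 without S2). Acta2 was at -0.68 ± 0.35 (limma adjusted p = 0.297). The 7 log2 fold changes ran from -1.20 to 1.17, with a median of -0.61. Skeletal muscle markers summed to 68.2 to 590 and 46.6 to 87.8 per 1000000 (0 of 7 called, median log2 fold change -1.52), with Acta1 at -1.52 ± 0.99 (adjusted p = 0.404). Fat cell markers were higher in every knockout library, at 9.67, 29.8 and 120 per 1000000 against 3.66, 5.12 and 2.03, with 0 of 2 tested genes called. Adipoq, a fat cell hormone gene, was at 0, 1.25 and 2.52 in the controls against 6.86, 111 and 519 in the knockouts. The part of these other cells in the collagen differences was not tested.

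**Figure D5:**
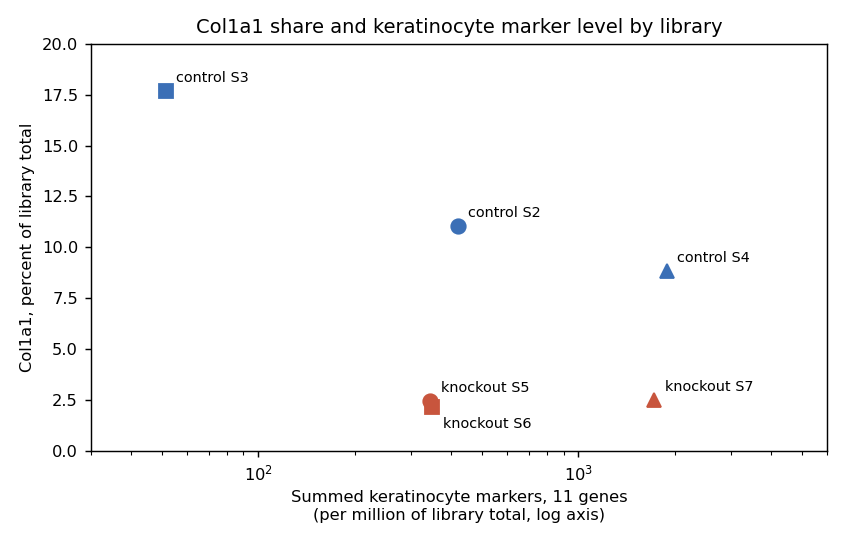
Share of the library total held by Col1a1 (percent) against the summed level of 11 keratinocyte markers (per 1000000 of the library total, log axis), 1 point per library. Control S3 lies at the lowest keratinocyte level (51.4) with the highest Col1a1 share (17.7%), S2 and S4 lie at 11.1% and 8.84%, and the knockout points lie at 2.16% to 2.49%.

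Genes of the machinery that makes and trims procollagen were called in both directions. Of 32 tested, 2 rose and 3 fell, with a median log2 fold change of -0.17. Beside this list and those below, 4.12% of all tested genes were called higher and 2.59% lower. P4ha3, a catalytic subunit of prolyl 4-hydroxylase, rose from a mean of 28.3 ± 12.0 to 602 ± 149 (SD, n = 3 each), a log2 fold change of 4.05 ± 0.29 (SE) with a limma adjusted p of 0.000782. P3h2, a prolyl 3-hydroxylase, rose from 33.5 ± 15.2 to 144 ± 25.3 (1.90 ± 0.32, adjusted p = 0.0162). Pcolce2, an enhancer of the protease that removes the C-propeptide of fibrillar procollagens, fell from 10157 ± 4063 to 2321 ± 803 (-2.10 ± 0.36, adjusted p = 0.0175). Fkbp14, a prolyl isomerase of the endoplasmic reticulum, and P4ha2, another prolyl 4-hydroxylase subunit, fell as well, but leaving out any library but S4 or S5 ended the call of Fkbp14 (adjusted p up to 0.153), and any but S4 that of P4ha2 (up to 0.116). The call of P3h2 was lost when S2, S6 or S7 was left out (adjusted p = 0.072, 0.0586 and 0.0578), and so was that of Pcolce2 (0.0798, 0.0763 and 0.0613). A further pair of genes was singled out after the values were seen. The collagen chaperone gene Serpinh1 was at 54580, 57321 and 27270 in the controls against 26470, 15560 and 15566 in the knockouts (log2 fold change -1.24 ± 0.39, adjusted p = 0.110). The cross-linking enzyme gene Lox was at 18219, 20619 and 10189 against 33784, 35981 and 41982 (1.25 ± 0.33, adjusted p = 0.0667). Neither gene overlapped between the groups. Of the 32 genes, 5 lay higher and 8 lower in the knockout without overlap, as did 15.7% and 13.1% of all tested genes.

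Of 16 genes for proteins on the fibril surface, 4 rose (Col12a1, Comp, Fmod and Postn) and 1 fell (Ogn), with a median log2 fold change of 0.20. Col12a1, a collagen that decorates fibrils, rose from a mean of 4307 ± 1220 to 98462 ± 32994 (SD, n = 3 each), a log2 fold change of 4.49 ± 0.36 (SE) with a limma adjusted p of 0.00116. Its knockout values of 60483, 114842 and 120062 were all far above the highest control, 5540. Postn, periostin, rose from 15629 ± 7951 to 92941 ± 14417 (2.67 ± 0.40, adjusted p = 0.0102; 0.0697 without S2). Comp, cartilage oligomeric matrix protein, was at 0, 3.75 and 1.68 in the controls, at or below 3 reads, and at 22.6, 32.8 and 39.0 in the knockouts (1.88 ± 0.35, adjusted p = 0.0224). Its fitted fold change depends on the pseudocount, and the call was lost without S2, S6 or S7 (adjusted p = 0.0856, 0.1 and 0.0928). Fmod was called only in the fit without S7 among those without 1 library (adjusted p up to 0.0965), and Ogn only in that without S5 (up to 0.148).

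Among 17 tested genes for collagen receptors and collagen breakdown 5 rose (Itga1, Itga11, Mmp8, Mmp13 and Timp1) and 2 fell (Itga2 and Timp3), with a median of 0.30. Mmp13, a collagenase that cuts fibrillar collagens, was at 7.62, 11.2 and 6.73 in the controls against 2702, 2880 and 3306 in the knockouts (log2 fold change 7.40 ± 0.19 SE, limma adjusted p = 9.26e-06). Timp1, an inhibitor of such proteases, rose from 73.7 ± 21.8 to 555 ± 137 (2.77 ± 0.28, adjusted p = 0.00274). Itga2, a subunit of a collagen-binding integrin, fell from 414 ± 20.3 to 119 ± 32.0 (-1.75 ± 0.23, adjusted p = 0.00711). The call of Itga1 was lost when S6, S7 or S2 was left out (adjusted p up to 0.067), Itga11 without S2, S5, S6 or S7 (up to 0.102), Timp3 without S2 or S6 (up to 0.0549) and Mmp8 without any library but S5 (up to 0.124).

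Of 23 tested genes that act on collagen transcription or on collagen mRNA, 3 rose (Ccn2, Larp6 and Tgfb1) and 1 fell (Creb3l1), with a median of -0.03. Tgfb1, a growth factor known to raise collagen transcription, was at 830, 663 and 541 in the controls against 1725, 1841 and 2045 in the knockouts (log2 fold change 1.47 ± 0.19 SE, limma adjusted p = 0.00623). Creb3l1, a membrane-bound transcription factor known to act on Col1a1 in bone, was at 6796, 14012 and 4845 in the controls against 2278, 1468 and 1668 in the knockouts. Its log2 fold change was -2.12 ± 0.38 (adjusted p = 0.0213), and the call was lost without S2, S6 or S7 (adjusted p = 0.076, 0.0938 and 0.0719). Its order among the controls was that of Col1a1, but also that of the library totals and of Dcn, Lum and Serpinh1. Larp6, which binds a stem-loop of type I collagen mRNAs, rose from 374 ± 49.3 to 824 ± 136 (1.12 ± 0.18, adjusted p = 0.0153; 0.0636 without S2 and 0.0650 without S6). Ccn2 lost its call without S2, S5, S6 or S7 (adjusted p up to 0.101).

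Among the other collagen chains calls went both ways. Of 33 listed, 31 had a row and 24 were tested, of which 6 rose (Col7a1, Col8a1, Col12a1, Col23a1, Col25a1 and Col28a1) and 5 fell (Col4a3, Col4a4, Col4a5, Col15a1 and Col18a1), with a median log2 fold change of 0.35. Besides Col12a1, Col7a1, the chain of the anchoring fibrils below the epidermis, was at 550, 593 and 459 in the controls against 5049, 9287 and 8273 in the knockouts (3.76 ± 0.25 SE, limma adjusted p = 0.000578). Col4a5, a basement membrane chain, was at 710, 635 and 653 against 167, 86.6 and 91.5 (-2.50 ± 0.26, adjusted p = 0.00299). In fits without 1 library the calls of Col15a1, Col18a1, Col28a1 and Col4a3 were each lost 3 to 5 times (adjusted p up to 0.0882, 0.0847, 0.135 and 0.127). The difference in the share of calls between these chains and the fibrillar ones was not tested. Over the lists for the machinery, the fibril surface, receptors and breakdown, regulators and other chains, 31 genes were called, counting Col12a1 as 1. Over all 15935 tested genes, 6.71% were called. The lists were chosen with earlier results of these data known, and their counts were not tested against that share. In fits without 1 library 12 of the 31 kept their call throughout, and without S2, S6 or S7 as many as 19, 18 and 15 lost it.

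Genes whose levels over the 6 libraries were among the most like those of Col1a1 were Nin (Pearson r of log2 values 0.997), Mettl21a (0.996), Igfbp5 (0.995) and Oxnad1 (0.995), among 10476 genes compared. For Col24a1 they were Csrp1 (0.999), Runx1 (0.996), Spats2l (0.995), Tns3 (0.995) and Cdc42ep3 (0.993). The 4 genes named for Col1a1 were called lower and the 5 named for Col24a1 higher in the knockout. The r rests on 6 libraries that fall into 2 groups, so it describes the group difference as much as any likeness within groups, and no p is given. Igfbp5, an insulin-like growth factor binding protein, had the largest fall of these 4 (log2 fold change -2.83 ± 0.47 SE, limma adjusted p = 0.0160), and the transcription factor gene Runx1 the largest rise of these 5 (2.60 ± 0.30, adjusted p = 0.00449).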

How the data were processed

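RNA from sorted mouse skin cells was sequenced after extraction with a PureLink kit and NEBNext Ultra II library preparation, per the labels' protocols. TopHat2 2.1.0 and Partek 9.0.20.0202 are listed in the submitters' processing notes. The role of each, the genome build, the annotation, any use of strand and the treatment of reads shared between chains were not given in the sources used here. The authors deposited normalized counts, treated here as a signal: estimated reads divided by a size factor of 0.787 to 1.26 per library. The values themselves gave this reading: 78.7% to 81.2% of those up to 1000 reads are whole multiples of 1 read within 0.05. Because whole reads were recovered in part only, no count model was run. The highest values carry 3 significant digits. A floor of 3 reads equals 2.39 to 3.81 normalized units, and covers counting error only.

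Groups were compared with limma 3.58.1 (R 4.3.3; intensity trend, 2-sided) on log2(value + 9.15), a pseudocount of 0.5 per 1000000 of the mean library total, which understates changes of low genes. Genes at 1 per 1000000 of the total in 3 or more libraries were tested, and p-values were adjusted by Benjamini-Hochberg over all 15935. The script was tested on simulated data. Shares and chain ratios were compared by exact 2-sided permutation tests. Rescaling to a common total moved the median log2 fold change of all genes from 0.01 to 0.31 and the part of calls that were higher from 61.4% to 78.9%. Changes are therefore stated on the scale the authors chose.

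The members and gene lists were chosen with earlier results of these data known. Text names all members, up to 3 called genes of each pathway list by adjusted p, the first gene of each marker list, and the 5 genes most correlated with Col1a1 and with the tested member of smallest p, at a mean of 5 per 1000000 or more, without collagens, predicted genes and pseudogenes. A gene that the rule takes for Col1a1 is not reported here. Other called genes of the lists are named where they make up a small count. Of the gene IDs, 23221 of 23934 occur in GENCODE vM21. As 1 of 10 members has the same start there, positions given are those of GRCm38, with transcript lengths from that annotation, not from the deposited table. Promoters came from RefSeq (7 of 10 members matched).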

Additional observations from a re-analysis of the deposited data

How the results depend on the processing

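The alternatives were the pseudocount, the filter, 3 rescalings, 2 variance models, other denominators and leaving out each library. The numbers that open the column names (2, 3 and 4 for the controls, 1, 2 and 3 for the knockouts) differ from the labels, which number the samples of each group 1 to 3, so they were not taken as pairs. A replicate block on them was added after seeing the data. The deviations of the libraries that share a number correlated at 0.251 (S2 and S6) and -0.223 (S3 and S7). Control and knockout libraries with different numbers ran from -0.306 to 0.407, so these values cannot tell whether the libraries are paired. With this block, 3 members were called higher (Col11a1 was added) and 0 lower, Col5a2 was at -0.25, pathway genes called lower numbered 22, marker genes called higher 11 and lower 5, and all genes 821 higher and 706 lower. The count of members called higher, 2, was 1 with a filter in all 6 libraries, where Col24a1 was not tested, and 1 to 2 without 1 library. The count called lower, 0, was 2 under a common total, without the trend and with robust variance, and 0 to 0 without 1 library. Pathway genes called higher numbered 19, and 12 with the filter in all 6, 29 under a common total and 9 to 18 without 1 library. Those called lower numbered 12, and 3 to 15 without 1 library. Marker genes called higher numbered 2, and 1 without a filter, 6 under a common total and 0 to 6 without 1 library. Those called lower numbered 2, and 0 under a common total, 1 to 4 without 1 library, and 1 each with a pseudocount of 0.1 per 1000000, no filter, a common total without the members, quantile normalization or no trend. Over all genes, 657 higher calls became 1057 under a common total and 237 to 697 without 1 library, and 413 lower calls 94 to 588. Quantile normalization turned Col3a1 (0.69) and Col5a2 (-0.10). Without 1 library, log2 fold changes ran from -0.13 to 0.34 for Col5a2 and from -1.39 to 2.29 for Krt5, and log2 ratios from -0.0747 to 0.0113 for Col1a2 per Col1a1 and from -0.25 to 0.53 for Col5a3 per Col5a1. In parts per 1000000 of the total, the share difference ran from -53.9 to 48.7 for Col5a3 and from -0.0259 to 0.122 for Col2a1. Relative to the fibroblast sum, the differences for Col5a1 (1164 per 1000000 of that sum) and Col5a3 (1298) were positive. The other alternatives kept the direction of shares (85 of 90) and ratios (102 of 104). The causes were not tested. Depth limits Col2a1, which was near the floor in each library.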
